A study of Mus musculus with 9 samples.

Results

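The 10 genes described here write, remove or repair cytosine methylation in DNA: the DNA methyltransferases Dnmt1, Dnmt3a and Dnmt3b, the maintenance factor Uhrf1, the TET dioxygenases Tet1, Tet2 and Tet3, and the DNA glycosylases Tdg, Ung and Mbd4. They were chosen by name and function, with their FPKM values in all 9 libraries already known, from a deposited table of 23951 gene symbols, which holds all 10. The levels and changes of the 10 genes are therefore a description, and no p-value is printed for them. The further lists below were also chosen with earlier results known, and their genes were mostly named for small adjusted p-values. Adjusted p-values printed for list genes therefore describe their place in the fit and are not tests of a choice made beforehand. A change is called rose or fell where it passed an adjusted p of 0.05 in a limma fit over all 10890 genes tested, and nothing is read from how many of the 10 did so.

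The libraries are RNA-seq of mouse bone marrow-derived mast cells, which are mast cells grown in culture from marrow. All cells were from wild-type C57BL/6 mice of unstated age, had been kept for 4 to 6 weeks with 10 ng/ml each of IL-3 and SCF, and were more than 95% positive for the IgE receptor and CD117, per the labels. There were 3 libraries of untreated cells and 3 of cells sensitized for 18 h with DNP-IgE, an IgE that recognises the hapten DNP, at 0.5 µg/ml. In 3 more, cells that had received this IgE were given the cross-linking antigen DNP-BSA, albumin carrying DNP, at 50 ng/ml for 2 h. No label ties the replicates to separate cultures or animals, so their spread may be technical.

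Cytosine methylation at CpG sites is copied after each round of replication by DNMT1, which UHRF1 guides to hemimethylated DNA. DNMT3A and DNMT3B place new methyl groups. TET enzymes oxidise 5-methylcytosine, TDG excises the oxidised products formylcytosine and carboxylcytosine, and base excision repair restores the unmethylated base. UNG removes uracil from DNA, and MBD4 removes thymine or uracil opposite guanine at methylated CpG sites. In people, DNMT3A and TET2 are recurrently mutated in clonal disorders of blood cells, mastocytosis among them.

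Levels are given in FPKM, a read density per transcript length and library size, as the authors deposited them. Depth, worked out from the spacing of small FPKM values, came to 20.7 to 28.3 M reads (M, megareads) in antigen libraries, 31.9 to 39.3 M in IgE libraries and at least 29.8 M in untreated ones. IgE replicate 3 stood apart, with an SD of 0.175 for its log2 differences from its group's remaining pair over 9661 genes, where no other library exceeded 0.123. Antigen replicate 3 had an FPKM of 0 for all 437 X-linked and all 4 Y-linked genes with values above 0 everywhere else. None of the 10 genes is on these chromosomes. Of 10 mast cell markers, 8 passed the filter, among them Fcer1a, Ms4a2 and Kit, while Cpa3 and Cma1 were listed at 0 in all 9 libraries. From IgE to antigen 3 of the 8 rose and 1 fell (36.2% and 34.9% of all tested genes did). Hdc went from 28.7 to 895 FPKM on average and Mcpt4 from 11.6 to 15.9, while Ms4a2 fell from 1080 to 626. B and T cell markers were below 1 FPKM throughout (4 of 4), and so were 4 of the 5 neutrophil markers found. The summed level of 6 macrophage markers was 31.0 to 33.6 FPKM in untreated, 37.1 to 39.5 in IgE and 45.5 to 49.1 in antigen libraries, with C1qa below 1 FPKM in each group, and that of 4 basophil markers was 508 to 546, 424 to 478 and 554 to 574 FPKM. Their members did not move as 1: among macrophage markers Cd68 rose at each step (8.62, 16.1 and 30.2 FPKM on average) while Emr1 fell (12.2, 9.36 and 7.75), and among basophil markers Prss34 fell at each step (120.3, 92.1 and 54.7) while Cd200r3 was highest with antigen (393, 344 and 492). Sums of 4 progenitor markers (790 to 828, 791 to 806 and 1018 to 1062 FPKM, nearly all Cd34 and Spn), 6 erythroid markers (15.3 to 18.3, 21.7 to 23.6 and 25.4 to 27.3 FPKM, nearly all Hbb-bt, with 5 below 1) and 4 megakaryocyte markers (434 to 439.7, 361 to 375 and 392 to 404 FPKM, nearly all Itga2b, with Pf4 below 1) were read in the same way. The part of these cell types in the results below was not tested. In bulk RNA, fewer cells of a type and less RNA per cell cannot be told apart.

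**Figure D1:**
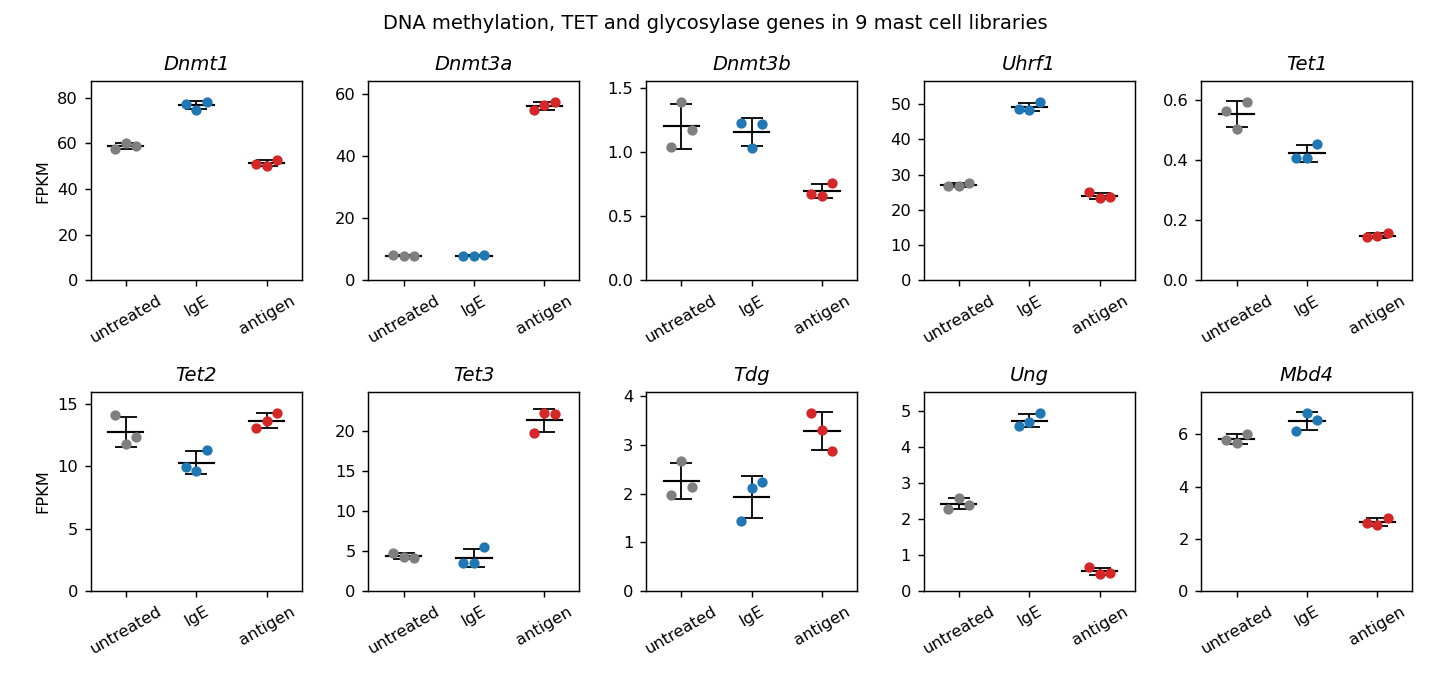
FPKM of each of the 10 genes (linear axes starting at 0, 1 scale per gene) in the untreated, IgE and antigen libraries. Points are libraries, horizontal lines group means and bars SD (n = 3); Dnmt3a, Tet3 and Tdg are highest in the 3 antigen libraries, while Dnmt1, Uhrf1, Ung and Mbd4 are highest in the 3 IgE libraries.

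The maintenance pair was the most abundant part of the set before antigen. Dnmt1, the maintenance methyltransferase, was at 57.6, 59.98 and 58.99 FPKM in the untreated libraries, at 77.4, 74.6 and 77.9 in the IgE libraries and at 50.9, 50.3 and 52.9 in the antigen libraries. The 3 groups did not overlap. Its mean rose 1.30-fold with IgE (log2 0.37, SE 0.0325, on the log2(FPKM + 1) scale used for all changes here), fell by 0.57 on that scale from IgE to antigen (SE 0.0325) and ended 0.19 below untreated cells. Uhrf1, the reader of hemimethylated DNA, was at 26.7, 26.7 and 27.7 FPKM in untreated, 48.6, 48.4 and 50.5 in IgE and 24.999, 23.3 and 23.7 in antigen libraries. Again no groups overlapped, and the antigen libraries lay just under the untreated ones. Uhrf1 rose 1.82-fold with IgE (log2 0.84, SE 0.0358), and only 26 of the 10890 tested genes had a larger log2 rise in that comparison. From IgE to antigen it was 2.05-fold lower (log2 -1.004, SE 0.0358).

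The start regions of Dnmt1, Uhrf1 and the glycosylases Ung and Mbd4 are shown because each of the 4 had its highest values in the 3 IgE libraries and its lowest in the 3 antigen libraries. Each is the 250 bases before an annotated RefSeq start on GRCm38.p6, 5′ to 3′ on the gene's strand, taken at the start with the most CpG dinucleotides where a gene has several. The table of values has no coordinates. Capitals mark matches on either strand to an E2F site (TTTCCCGC, TTTCGCGC, TTTGCCGC or TTTGGCGC), a CCAAT box (CCAAT) or a GC box (GGGCGG), which are short letter patterns bound by E2F, NF-Y and SP factors.
Dnmt1: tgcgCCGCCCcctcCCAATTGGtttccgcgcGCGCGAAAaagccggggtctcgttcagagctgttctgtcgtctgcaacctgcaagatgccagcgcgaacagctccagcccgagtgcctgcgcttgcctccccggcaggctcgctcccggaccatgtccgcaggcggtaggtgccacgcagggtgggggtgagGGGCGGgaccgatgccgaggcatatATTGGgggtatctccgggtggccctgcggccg
Uhrf1: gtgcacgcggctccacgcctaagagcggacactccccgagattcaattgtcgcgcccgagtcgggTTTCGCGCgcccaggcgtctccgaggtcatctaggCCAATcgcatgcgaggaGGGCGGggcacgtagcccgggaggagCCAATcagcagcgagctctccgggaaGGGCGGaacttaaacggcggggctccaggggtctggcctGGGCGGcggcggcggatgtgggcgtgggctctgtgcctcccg
Ung: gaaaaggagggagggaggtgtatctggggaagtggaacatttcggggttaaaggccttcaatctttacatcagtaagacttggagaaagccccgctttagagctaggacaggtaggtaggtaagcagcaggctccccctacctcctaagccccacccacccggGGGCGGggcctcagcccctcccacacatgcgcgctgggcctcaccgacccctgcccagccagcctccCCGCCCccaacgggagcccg
Mbd4: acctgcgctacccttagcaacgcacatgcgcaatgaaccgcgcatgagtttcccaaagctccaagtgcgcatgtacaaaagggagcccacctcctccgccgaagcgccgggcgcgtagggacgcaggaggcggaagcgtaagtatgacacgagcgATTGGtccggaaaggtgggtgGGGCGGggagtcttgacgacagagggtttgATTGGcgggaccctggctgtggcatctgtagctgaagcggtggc
The Dnmt1 window is chr9:20952624-20952873, minus strand, the Uhrf1 window chr17:56304063-56304312, plus strand, the Ung window chr5:114130185-114130434, plus strand, and the Mbd4 window chr6:115853342-115853591, minus strand. Dnmt1 and Uhrf1 each held 1 E2F match, with the letters TTTCGCGC, with first bases at -219 and -185 counted from the start. The further annotated starts of both genes held none. Both printed windows lie downstream of those starts, whose windows are chr9:20952980-20953229 and chr9:20959889-20960138 for Dnmt1 and chr17:56303087-56303336 for Uhrf1. For transcripts from those starts, the E2F matches are inside the gene and not before it. Such a match was found in 1.86% of 32851 RefSeq windows of the same length. Both also held CCAAT boxes (33.8% of windows), at 3 and 2 positions, where 2 of the 3 in Dnmt1 overlap. The Ung window held no E2F match and no CCAAT box but 2 GC boxes (32.7% of windows), and the Mbd4 window no E2F match, 2 CCAAT boxes and 1 GC box. The shares are over all annotated starts, whereas the Dnmt1 and Uhrf1 windows were picked for their CpG number, 26 and 30; the further starts hold 7 and 2 in Dnmt1 and 10 in Uhrf1.

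De novo methyltransferases moved apart. Dnmt3a was at 8.24, 7.93 and 7.82 FPKM in untreated libraries and at 7.86, 7.82 and 8.17 in IgE libraries, which overlapped. In the antigen libraries it was at 55.1, 56.5 and 57.4 FPKM, far above all the others. The rise from IgE was 7.09-fold, from a mean of 7.95 ± 0.190 to 56.3 ± 1.196 FPKM (SD, n = 3; log2 2.68, SE 0.0343), and 70 of the 10890 tested genes had a larger one. Dnmt3b was low throughout, at 1.05, 1.39 and 1.18 FPKM in untreated, 1.23, 1.03 and 1.22 in IgE and 0.678, 0.656 and 0.760 in antigen libraries. The antigen libraries lay under the other 6. Dnmt3b fell by 0.35 (log2, SE 0.0697) from IgE to antigen, a change that did not pass the threshold after quantile normalization (log2 -0.24). Its fall from untreated to antigen (log2 -0.37, SE 0.0697) did not pass after that normalization either (log2 -0.18). The 3 methyltransferases summed to 66.9 to 69.3 FPKM in untreated, 83.4 to 87.3 in IgE and 107 to 111 in antigen libraries. Of that sum Dnmt3a made up 11.7% ± 0.484 in untreated, 9.27% ± 0.157 in IgE and 52.0% ± 0.540 in antigen libraries (SD, n = 3), where it passed Dnmt1. Dnmt3a has 3 start windows in RefSeq, and the table's single row does not say which start or isoform gained reads.

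The TET dioxygenases also changed order. Tet3 was at 4.76, 4.27 and 4.15 FPKM in untreated libraries, at 3.51, 3.53 and 5.46 in IgE libraries and at 19.7, 22.2 and 22.1 in antigen libraries. IgE replicate 3 was the high one of its group, and all antigen libraries were above the other 6. Tet3 rose 5.12-fold from IgE to antigen, from 4.17 ± 1.118 to 21.3 ± 1.43 FPKM (SD, n = 3; log2 2.13, SE 0.134), and 152 tested genes had a larger log2 rise. Tet2 was at 14.1, 11.8 and 12.3 FPKM in untreated, 9.96, 9.59 and 11.3 in IgE and 13.1, 13.6 and 14.3 in antigen libraries. The IgE libraries were the lowest, and the untreated and antigen groups overlapped. Tet2 fell by 0.28 (log2, SE 0.0774) with IgE and rose by 0.38 (SE 0.0774) from IgE to antigen. Its fall with IgE did not pass the threshold without untreated replicate 1 (log2 -0.21), without untreated replicate 3 (-0.30), without IgE replicate 1 (-0.26) or without IgE replicate 2 (-0.24). Without IgE replicate 3, Tet3 also fell with IgE (log2 -0.25, against -0.08 over all libraries). Tet1 was at 0.561, 0.504 and 0.591 FPKM in untreated, 0.405, 0.405 and 0.454 in IgE and 0.144, 0.146 and 0.157 in antigen libraries. These groups did not overlap, but Tet1 was under the filter of 1 FPKM in 3 libraries and was not tested. Its antigen values correspond to an estimated 3.03 to 4.43 reads per kilobase of transcript.

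Summed TET levels were 16.6 to 19.4 FPKM in untreated, 13.5 to 17.2 in IgE and 32.9 to 36.5 in antigen libraries. Tet2 made up 72.0% ± 0.741 of that sum in untreated and 69.5% ± 3.29 in IgE libraries. In antigen libraries Tet3 held 60.7% ± 1.01 and Tet2 38.9% ± 0.991 (SD, n = 3).

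**Figure D2:**
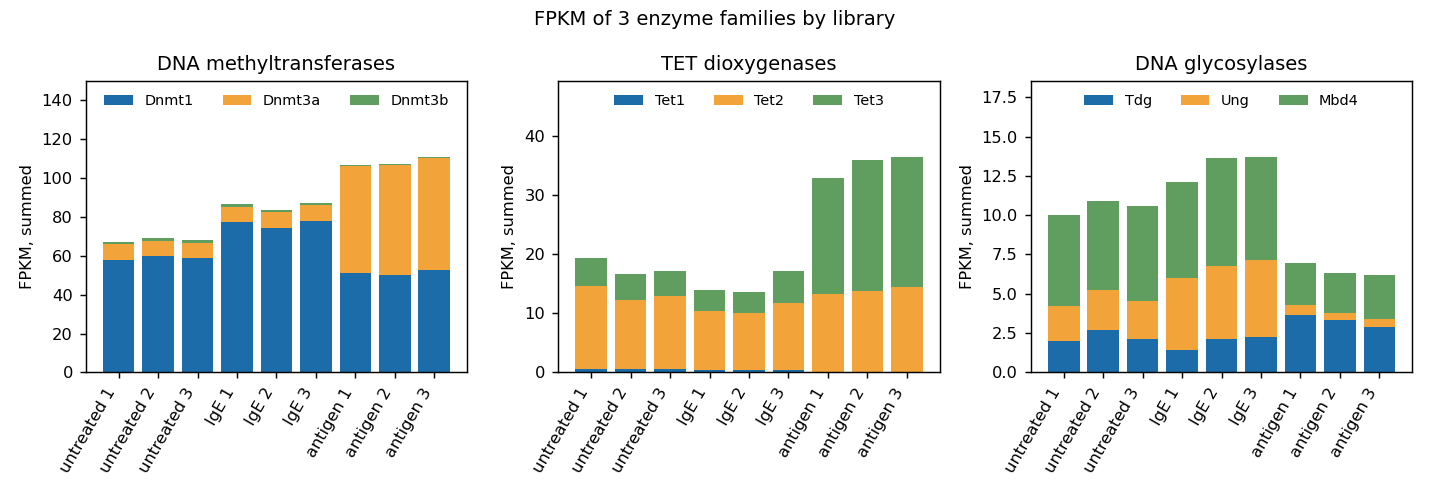
Stacked FPKM of the 3 DNA methyltransferases, the 3 TET dioxygenases and the 3 DNA glycosylases in each of the 9 libraries (linear axes starting at 0). In the antigen libraries Dnmt3a is 52.0% of the methyltransferase sum and Tet3 60.7% of the TET sum on average, while the glycosylase sum is 6.18 to 6.93 FPKM.

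The start regions of the pair that gained most with antigen are shown with the same marks.
Dnmt3a: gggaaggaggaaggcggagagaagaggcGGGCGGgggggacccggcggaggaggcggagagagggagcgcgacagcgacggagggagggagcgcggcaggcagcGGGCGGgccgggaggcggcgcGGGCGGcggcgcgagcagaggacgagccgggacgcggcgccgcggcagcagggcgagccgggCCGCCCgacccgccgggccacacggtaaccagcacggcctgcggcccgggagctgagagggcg
Tet3: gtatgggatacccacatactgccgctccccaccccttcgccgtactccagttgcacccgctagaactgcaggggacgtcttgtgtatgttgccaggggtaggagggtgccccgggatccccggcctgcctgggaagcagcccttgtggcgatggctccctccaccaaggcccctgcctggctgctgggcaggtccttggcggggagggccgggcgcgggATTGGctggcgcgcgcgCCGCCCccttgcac
The Dnmt3a window is chr12:3806910-3807159, plus strand, and the Tet3 window chr6:83441679-83441928, minus strand. The Dnmt3a window overlaps that of another annotated start of this gene, chr12:3806730-3806979. Dnmt3a held 4 GC boxes and no E2F or CCAAT match, and Tet3 held 1 GC box and 1 CCAAT box. Neither held an AP-1 site (TGACTCA or TGAGTCA, 4.46% of windows), a cyclic AMP response element (TGACGTCA, 1.55%) or a kappaB site (7.25%). Of the other members, Tdg, which also rose with antigen, held both a cyclic AMP response element, at -135, and a kappaB match, and Dnmt3b, which fell, held kappaB matches. These are matches of letters, and no binding was measured.

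The glycosylases fell as a sum, from 12.1 to 13.7 FPKM in IgE libraries to 6.18 to 6.93 in antigen libraries, with untreated libraries at 10.0 to 10.9. Ung was at 2.27, 2.58 and 2.40 FPKM in untreated, 4.56, 4.68 and 4.93 in IgE and 0.662, 0.484 and 0.513 in antigen libraries. Each group was clear of the others. Ung rose 1.95-fold with IgE (log2 0.74, SE 0.0601), with 49 tested genes rising more. From IgE to antigen it was 8.54-fold lower (log2 -1.88, SE 0.0601), and 82 tested genes had a larger log2 fall. The antigen values correspond to an estimated 10.0 to 16.3 reads per kilobase, so the size of the fall is less precise than those of Dnmt1 or Uhrf1. With a pseudocount of 0.1 the log2 change was -2.89. Mbd4 was at 5.77, 5.67 and 6.02 FPKM in untreated, 6.12, 6.81 and 6.56 in IgE and 2.62, 2.52 and 2.80 in antigen libraries. The antigen libraries lay under all others, and Mbd4 was 2.45-fold lower than with IgE (log2 -1.04, SE 0.0502). Its change with IgE alone (log2 0.14) did not pass the threshold, although those groups did not overlap. Tdg, the glycosylase for TET products, went the other way, at 1.97, 2.68 and 2.13 FPKM in untreated, 1.43, 2.12 and 2.24 in IgE and 3.65, 3.31 and 2.87 in antigen libraries. The untreated and IgE groups overlapped, and all antigen libraries were higher. Tdg rose 1.70-fold from IgE to antigen (log2 0.55, SE 0.129). Its rise over untreated cells (log2 0.39, SE 0.129) did not pass the threshold when untreated replicate 1 (0.33), untreated replicate 3 (0.37), antigen replicate 1 (0.33) or antigen replicate 2 (0.39) was left out.

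**Figure D3:**
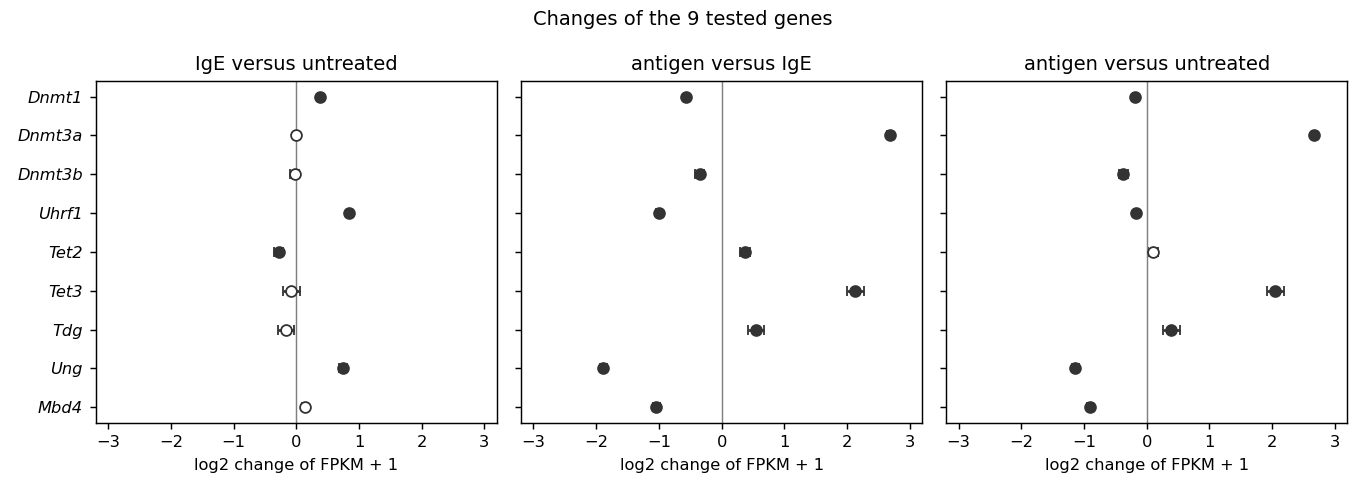
Log2 changes of FPKM + 1 with standard errors for the 9 tested genes in the 3 comparisons (linear log2 axis; filled points passed an adjusted p of 0.05 in the fit over all genes, open points did not). Dnmt3a and Tet3 lie above 2 in both antigen comparisons, and Ung lies at -1.88 against IgE.

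In all, 9 of the 10 genes passed the filter on low values. Dnmt3b and Ung were under 1 FPKM in the 3 antigen libraries and passed it through the other 6. With IgE alone, 3 of the 9 tested genes rose (Dnmt1, Uhrf1, Ung; 14.5% of all tested genes did) and 1 fell (Tet2; 13.1%). From IgE to antigen 4 rose (Dnmt3a, Tet2, Tet3, Tdg; 36.2%) and 5 fell (Dnmt1, Dnmt3b, Uhrf1, Ung, Mbd4; 34.9%). Against untreated cells, antigen libraries had 3 higher (Dnmt3a, Tet3, Tdg; 37.2%) and 5 lower (34.4%). In either direction 27.5%, 71.1% and 71.7% of all tested genes passed. Library values did not overlap for 4 of the 10 genes with higher (21.3% of all tested genes) and 2 with lower values (21.8%; 43.2% either way) in IgE against untreated libraries. From IgE to antigen all 10 were clear of overlap, 4 higher (37.1%) and 6 lower (37%; 74.2% either way), and against untreated cells 9 were, 3 higher (40.2%) and 6 lower (38%; 78.3% either way). These comparisons share libraries, so they are not independent of each other.

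The order of the levels shows the same shift. From highest to lowest, untreated libraries had Dnmt1, Uhrf1, Tet2, Dnmt3a, Mbd4, Tet3, Ung, Tdg, Dnmt3b and Tet1, with overlapping ranges for Ung and Tdg. IgE libraries had the same order except that Ung stood above Tet3, with which it overlapped. Antigen libraries had Dnmt3a, Dnmt1, Uhrf1, Tet3, Tet2, Tdg, Mbd4, Dnmt3b, Ung and Tet1, and Dnmt3b and Ung overlapped. No other neighbours overlapped in their library values.

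Genes with the most similar profile were taken by Pearson's r of log2(FPKM + 1) over the 9 libraries, as a description over 3 groups that differ widely. Closest to Dnmt1 were Brca2, a homologous recombination gene, Dck, a nucleoside kinase, and Ctdspl (r = 0.9944, 0.9934 and 0.9919). Closest to Uhrf1 were Mcm7, a replicative helicase subunit, Gtse1 and Incenp, which act in the cell cycle (r = 0.9919, 0.9916 and 0.9891). Ung was closest to Mvk, an enzyme of sterol synthesis, Wdr5 and Rbl1 (r = 0.9963, 0.9954 and 0.9949), and Mbd4 to Lmo4, Cntrob and Gstt3 (r = 0.9977, 0.9971 and 0.9969). For Dnmt3a the first 3 were Slc20a1, Efnb2 and Tnfrsf1b (r = 0.9999 for each), but 627 of 10810 genes had an r over 0.99 with it. For Tet3, with Lamc1, Frmd4a and Itga5 (r = 0.9994, 0.9991 and 0.9991), 275 did. Dnmt1, Uhrf1, Ung and Mbd4 had 6, 2, 23 and 47 such genes, and Tet2, Tdg and Dnmt3b had none.

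Partners of maintenance methylation went both ways with antigen, as all tested genes did. Of 6 tested, 4 rose and 0 fell with IgE (list median log2 0.60, against -0.01 over all tested genes). From IgE to antigen 3 rose and 3 fell (median -0.24, against -0.01). Over all tested genes 14.5% rose and 13.1% fell with IgE, and 36.2% rose and 34.9% fell from IgE to antigen. The remodeller Hells and its partner Cdca7, which are needed for methylation of heterochromatin, were at 10.1 and 7.15 FPKM in untreated, 17.8 and 11.5 in IgE and 5.54 and 2.15 in antigen libraries on average. Lig1, the replication ligase, was at 18.3, 31.3 and 19.002 FPKM, so it did not end below untreated cells as the other pair did. Cdca7 fell by 1.98 (log2, SE 0.0507, limma adjusted p = 9.45e-09) and Hells by 1.52 (SE 0.101, adjusted p = 2.37e-06) from IgE to antigen. Pcna, the replication clamp, rose in both steps, from 161 ± 5.03 to 244 ± 13.6 and 349.8 ± 16.2 FPKM (SD, n = 3). The deubiquitinase Usp7 and the Uhrf1 paralog Uhrf2 also rose with antigen, to 39.1 and 30.8 FPKM.

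Beside Dnmt1, Uhrf1 and Ung, the 12 genes put in a DNA replication list rose with IgE and fell from IgE to antigen. Among them were the Mcm2 to Mcm7 helicase subunits, E2f1 and Rrm2. Not every replication gene did so: Pcna, counted above with the maintenance partners, rose in both steps (161, 244 and 349.8 FPKM on average). The counts below therefore hold for the chosen list. The rise was called in 12 of 12 (median log2 0.70, against 14.5% and -0.01 over all tested genes). The fall was called in 12 of 12 (median -0.85, against 34.9% and -0.01 over all tested genes). Against untreated cells 1 was higher (Cdt1) and 8 were lower (71.7% of all tested genes passed in either direction) in antigen libraries, including E2f1, Cdc6 and Mcm4 (log2 -0.66, -0.63 and -0.39). Mcm3 had the smallest adjusted p of these in both steps (6.86e-05 and 8.69e-08, limma), with log2 changes of 0.57 and -0.83. The part of cell cycle activity in the levels of Dnmt1, Uhrf1 and Ung was not tested.

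Of the 7 other DNA glycosylases tested, 1 rose and 5 fell with antigen (median log2 -0.41; 36.2% of all tested genes rose and 34.9% fell). Ogg1, which removes oxidised guanine, went from 6.91 ± 0.104 to 4.34 ± 0.164 FPKM (SD, n = 3; limma adjusted p = 2.04e-05) and Nthl1 from 2.44 ± 0.458 to 0.995 ± 0.119 FPKM (adjusted p = 0.000641). Smug1, another uracil glycosylase, rose from 3.08 ± 0.239 to 4.22 ± 0.163 FPKM (limma adjusted p = 0.00071, log2 change 0.36), while Ung fell. With IgE alone Neil3 rose (log2 0.46) and no tested member fell. Neil1, which is not X-linked, was called lower at an unchanged log2 of -0.38 once the X and Y zeros of antigen replicate 3 were treated as missing. Its limma adjusted p went from 0.0532 to 0.0319. Against untreated cells Neil1 was 1.97-fold lower in antigen libraries. Downstream repair enzymes had 2 rises and 6 falls among 12 with antigen (median -0.47), or 3 and 6 (median -0.25) with those zeros missing. Parp1, the strand-break sensor, went from 35.4 ± 0.148 to 21.2 ± 0.388 FPKM (adjusted p = 2.95e-07), and Tdp1, which cleans DNA ends, fell by 0.77 on the log2 scale. Apex1, the abasic site nuclease, rose from 9.25 to 12.2 FPKM. With IgE alone Fen1, the flap nuclease, Tdp1 and Parp1 rose (log2 0.58, 0.29 and 0.16). Apex2 is X-linked and rose (log2 0.37) once the zero of antigen replicate 3 was treated as missing.

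Of 6 deaminase and Gadd45-pathway genes tested, 3 rose and 2 fell with antigen (median log2 0.23; 36.2% of all tested genes rose and 34.9% fell). The rises were the 3 Gadd45 genes, which have been linked to active demethylation. Gadd45b, at 1.56, 2.16 and 1.11 FPKM in IgE libraries, was at 148 FPKM in each antigen library (log2 5.85, SE 0.147, limma adjusted p = 8.69e-09), and 3 tested genes had a larger log2 rise. Gadd45g rose 2.18-fold and Gadd45a 1.46-fold. The cytidine deaminase gene Apobec3 and Ing1, a chromatin reader, fell by 0.26 and 0.25 (log2) with antigen. With IgE alone none of the 6 tested members of this list was called, the most abundant of them, Apobec3 and Ing1, having log2 changes of -0.13 and 0.02.

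Genes around the TET reaction moved both ways with antigen, 2 of 7 up and 4 down (median log2 -0.47), or 3 up and 4 down (median -0.23) with the X-linked zeros of antigen replicate 3 missing. Over all tested genes 36.2% rose and 34.9% fell. Cxxc5, a CXXC-domain protein known to bind TET2, was at 18.1, 18.98 and 21.6 FPKM in IgE libraries and at 60.2, 63.9 and 66.8 in antigen libraries (3.25-fold, limma adjusted p = 1.54e-07). Hmces, a sensor of abasic sites in single-stranded DNA, rose 1.80-fold. The 2-hydroxyglutarate dehydrogenase D2hgdh fell from 8.43 ± 0.514 to 4.16 ± 0.316 FPKM (SD, n = 3), and Idh1 and Idh2 also fell. With IgE alone Cxxc5 fell by 0.25 (log2). Ogt, a TET partner on the X chromosome, rose by 0.24 (log2) with the zero of antigen replicate 3 missing and was not called with it.

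Partners of de novo methylation had 2 rises and 4 falls among 6 tested (median log2 -0.29) from IgE to antigen. Over all tested genes 36.2% rose and 34.9% fell in that step. Kdm1b, a histone demethylase needed for oocyte methylation in mice, went from 6.33 ± 0.181 to 3.45 ± 0.0164 FPKM (adjusted p = 7.97e-07, limma), and the H3K9 methyltransferase gene Ehmt2 and the corepressor Trim28 fell by 0.50 and 0.41 on the log2 scale. The rises were Setd2 (log2 0.42) and Setdb1 (log2 0.08), and the call of Setdb1, which is not X-linked, was lost at an unchanged fold (limma adjusted p = 0.0676) when the X and Y zeros were treated as missing. With IgE alone Nsd1 and Setd2, which methylate H3K36, fell by 0.21 and 0.19. The DNMT3 cofactor Dnmt3l had group means of at most 0.00951 FPKM. Readers of methylated CpG had 4 rises and 1 fall among 9 (median 0.11, or 0.25 with the X-linked zeros missing), among the rises Zbtb38 (1.49-fold), Mbd6 (1.92-fold) and Mbd2 (1.23-fold), and the X-linked Zbtb33 rose by 0.85 (log2) with the zero of antigen replicate 3 missing. Mbd5 was 2.07-fold lower in antigen than in untreated libraries. With IgE alone Mbd3 rose by 0.25 (log2) and Zbtb4 fell by 0.31 (log2). Genes of methyl donor and dUTP supply rose in 7 of 13 with IgE (median 0.35), including Tyms (1.45-fold), Mthfd1 (1.43-fold) and Ahcy (1.29-fold), and had 4 rises and 6 falls among them with antigen (median -0.10). Dut, the enzyme that keeps uracil out of DNA, went from 14.0 to 22.8 and 14.9 FPKM, and the mitochondrial Shmt2 rose from 29.9 to 42.5 and 88.4 FPKM. Ahcyl1 rose 2.04-fold with antigen. For all these lists the share of called genes among all tested was 27.5% with IgE (14.5% higher and 13.1% lower). It was 71.1% from IgE to antigen and 71.7% from untreated to antigen.

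**Figure D4:**
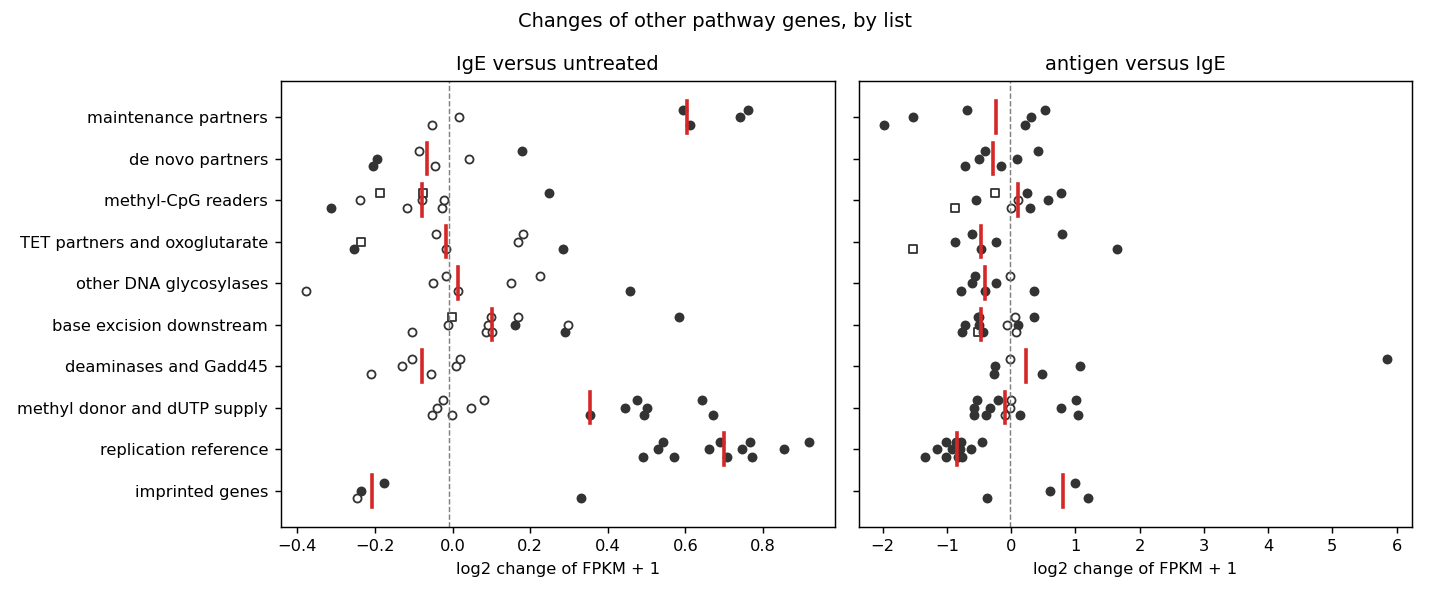
Log2 changes of FPKM + 1 of the tested genes in each pathway list, for IgE versus untreated and antigen versus IgE (linear log2 axes with different scales). Filled marks passed an adjusted p of 0.05 and open marks did not. Squares are X-linked genes with the zero of antigen replicate 3 included. Red bars are list medians and dashed lines the median of all tested genes. The 12 genes of the replication list lie right of 0 with IgE and left of 0 with antigen. Pcna, in the maintenance list, lies right of 0 in both panels.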

How the data were processed

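RNA-seq values of 9 libraries, 3 per group, were used as FPKM, as deposited by the authors in 1 table. TopHat2 (2.0.12), Bowtie (0.12.7) and the mm9 build are named, per the submitters' processing notes; which program made the FPKM, with which annotation and whether by strand, is not given in the sources used here. Depth was inferred from the periodicity of FPKM times length in genes with 1 GENCODE M21 transcript of over 1000 bases. Genes with at least 1 FPKM in 3 libraries (10890) were tested with limma 3.58.1 (R 4.3.3) as log2(FPKM + 1), fitting the mean of each group over all 9 libraries with a trend prior, and two-sided p-values were adjusted by Benjamini-Hochberg within a comparison. The scale understates changes of low genes; folds are ratios of mean FPKM. The fit was tried on simulated data with independent noise and few changed genes. That setting lacks the many changes, the outlying IgE library and the X and Y zeros seen here, so nothing is read from it. The 10 genes and all lists were chosen with earlier results of these data known. Besides the 10, up to 3 called genes with the smallest adjusted p per list and comparison, or the 2 highest where none was called, and the 3 closest profiles per gene were to be named; Uhrf2, Dnmt3l, Zbtb33, Ogt, Idh1, Idh2, Apex1, Apex2, Dut, Mcm2, Setdb1, Cdt1, Rrm2, H19, Dlk1, Meg3 and Nnat fall outside this rule and were chosen after their values were seen. Some genes that the rule names are not reported here. Promoter windows and chromosomes come from RefSeq tables of GRCm38.p6 by symbol, with a start for all 10 genes. Alternatives covered the pseudocount, filter, scaling, prior, libraries in the fit, a replicate block, X and Y zeros, a 1.5-fold threshold and each library left out.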

Additional observations from a re-analysis of the deposited data

How the results depend on the processing

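Across 22 alternatives the counts of the 9 tested genes called stayed within 1.5 times except as follows. The number called lower with IgE (1, Tet2) became 2 with no filter on low values and 2 without IgE replicate 3 and antigen replicate 3. It ranged from 0 to 2 when 1 library was left out, at 0 without untreated replicate 1 or 3 or IgE replicate 1 or 2 and at 2 without IgE replicate 3. An added threshold of 1.5-fold was set on the log2(FPKM + 1) scale. It gave 0 lower with IgE, 2 higher and 3 lower from IgE to antigen, and 2 lower against untreated cells. By ratios of mean FPKM, Tdg (1.70-fold higher) and Dnmt3b (1.66-fold lower) would also pass it from IgE to antigen. Dnmt3b would pass it against untreated cells as well (1.72-fold lower). With 1 library left out the other counts were 3 higher with IgE, 4 higher and 5 lower from IgE to antigen, and 2 to 3 higher and 5 lower against untreated cells. Only uncalled changes with IgE reversed: under quantile normalization to 0.00538 for Dnmt3a and 0.0607 for Dnmt3b, and when libraries were left out to a range of -0.0246 to 0.0123 for Dnmt3a, -0.0795 to 0.0328 for Dnmt3b and -0.252 to 0.00664 for Tet3, the lowest of which, without IgE replicate 3, passed the threshold. The causes were not tested. With no filter Tet1 was tested and fell by 0.13 with IgE, by 0.31 from IgE to antigen and by 0.43 from untreated to antigen (log2). A filter of 3 FPKM left Dnmt3b and Tdg with no value. Replicate numbers are shared by the groups, but the labels do not say whether they pair the libraries. Correlations of same-numbered deviations ran from -0.331 to 0.351, and a library was closest to its own number in 5 of 18 checks. The correlations were all positive for IgE against untreated (0.117, 0.351 and 0.0393). They were all negative for antigen against IgE (-0.104, -0.331 and -0.0839) and of both signs for antigen against untreated. With 3 libraries a group, this check cannot settle whether they are paired. With a replicate block the counts of calls were again 3 and 1, 4 and 5, and 3 and 5. Of the genes described, Ung, Dnmt3b and Tet1 had the fewest estimated reads per kilobase in the antigen libraries, which limits these values. Both their low FPKM and the estimated depth enter that number.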

Other observations

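Imprinted genes, and germline genes whose promoters are known to carry DNA methylation in body cells, were read beside the methylation machinery, with no measurement of methylation. The table held 14 imprinted genes, and 4 of them passed the filter. From IgE to antigen Grb10, a growth factor receptor adaptor, rose from 2.07 ± 0.0820 to 6.08 ± 0.343 FPKM (SD, n = 3; log2 1.204, SE 0.0509, limma adjusted p = 1.58e-07), Igf2r rose 2.04-fold and Nnat 3.205-fold, and Impact fell from 16.9 ± 0.703 to 12.9 ± 0.341 FPKM. Nnat was below 1 FPKM in all 3 IgE libraries and would not have passed the filter without the antigen libraries. That selection favours a rise, and the Nnat fold rests on low values, so its size is uncertain. With IgE alone Grb10 rose 1.43-fold and Impact and Igf2r fell. H19 had means of 0.117, 0.0280 and 0.0210 FPKM in untreated, IgE and antigen libraries, and Dlk1 and Meg3 were listed at 0 in every library. None of the 12 germline genes reached the filter in any group. The highest were Ddx4, with means of 0.196, 0.257 and 0.185 FPKM in untreated, IgE and antigen libraries, and Dazl, with 0.182, 0.222 and 0.161 FPKM, and 5 of them were listed at 0 in all 9 libraries. A 0 in this table may be a failed estimate, since the mast cell genes Cpa3 and Cma1 are also at 0, so it is not read as absence of the transcript.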
